A study of Mus musculus with 15 samples.

Results

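The genes described here are Igf1, its receptor gene Igf1r and the IGF binding protein genes Igfbp2, Igfbp3, Igfbp4, Igfbp5, Igfbp6 and Igfbp7. They were found by symbol in the table of normalised transcript levels. The 8 genes had 19 of the 65522 transcription units in that table, and the unit with the highest mean level stands for each gene. All 8 genes passed the filter on low levels (mean of at least 1 FPKM, a count of sequenced fragments scaled to transcript length and library size) in 5 of the 6 comparisons, and Igfbp5 did not pass it among adapted cells alone.

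RNA-seq of poly(A) RNA was made from 15 populations of female mouse embryonic fibroblasts of C57BL/6 background, named here S01 to S15 by the numbers in their labels. WT primary cells were S01, S02 and S03, and the culture-adapted lines derived from WT cells were S07, S08 and S09. CIZ1 -/- (CIZ1 null) primary cells were S04 and S05, and CIZ1 null adapted lines were S10, S11 and S12. CIZ1 null primary cells with an inducible CIZ1 transgene (GFP-CIZ1, driven by a doxycycline-responsive transactivator) were left untreated in S06 and S13 and given doxycycline at 5 to 10 µg/ml in S14 and S15.

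CIZ1 is a nuclear matrix protein of the inactive X chromosome, and its gene carries a gene-trap insertion in the null cells. Each primary population came from a single mid-gestation embryo and was used before passage 5. Adapted lines grew out of the primary cultures on long-term passage, from colonies that were replated together and so are not single clones. By values identical to those of the study's tables by line, S09, S07 and S08 came from the same embryos as S01, S02 and S03, and S12, S10 and S11 from the same embryos as S04, S05 and S06. S06 carries the transgene, although untreated, and was counted with S04 and S05 as the third primary CIZ1 null population, as in the study. S11 derives from that same embryo and its label names no transgene, although the study's list of cell lines gives the adapted line of this embryo the inducible transgene. The source name of S06 reads S13, which goes against its title.

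IGF1 is a secreted growth factor that acts through the receptor tyrosine kinase IGF1R to promote growth and survival, and fibroblasts are both a source and a target of it. IGF binding proteins are secreted carriers that hold IGF1 and IGF2 outside the cell. Binding keeps the ligands from the receptor, and proteases that cleave the binding proteins release them. IGFBP2 to IGFBP6 bind IGFs with high affinity, IGFBP6 prefers IGF2, and IGFBP7 binds IGFs weakly and is also a matrix protein of vessels and stroma.

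All 8 genes are protein coding. In the GRCm38 coordinates of the files, Igf1 spans chr10:87826376-87937043 and Igf1r spans chr7:67951643-68233901. Igfbp2 (plus strand, chr1:72824469-72852476) and Igfbp5 (minus strand, chr1:72857931-72874884) are adjacent, 5457 bases apart in GENCODE. Igfbp3 lies at chr11:7206085-7213929 beside Igfbp1, which was listed at 0 in every library. Igfbp4 lies at chr11:99040079-99054392, Igfbp6 at chr15:102144286-102149521 and Igfbp7 at chr5:77294181-77408041. These are spans of transcription units and can be longer than the gene. In GENCODE, Igf1 is at chr10:87858265-87937042 and Igfbp7 at chr5:77349240-77408041. Igfbp7 overlaps Polr2b and Igf1 overlaps the antisense gene Igf1os, and because the libraries were not stranded, reads of such partners cannot be told apart.

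For 4 binding protein genes that the results below turn on, stretches of bases before the RefSeq start are shown. They are from RefSeq (GRCm38.p6), 5′ to 3′ on the gene's strand, with CG dinucleotides in capitals. The one of Igfbp5 ends 19 bases short of the RefSeq start, where the GENCODE gene begins. In GENCODE, Igfbp2 begins at 72824503 and Igfbp6 at 102144362, beyond the ends of their stretches. The stretches thus do not end at like distances from the GENCODE starts. The stretches are chr1:72874885-72874945 (minus strand) for Igfbp5, chr1:72824400-72824479 (plus) for Igfbp2, chr11:7213924-7214003 (minus) for Igfbp3 and chr15:102144106-102144185 (plus) for Igfbp6.
Igfbp5: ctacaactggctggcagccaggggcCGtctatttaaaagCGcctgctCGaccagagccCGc
Igfbp2: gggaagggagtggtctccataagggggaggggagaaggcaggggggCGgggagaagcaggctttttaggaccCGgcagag
Igfbp3: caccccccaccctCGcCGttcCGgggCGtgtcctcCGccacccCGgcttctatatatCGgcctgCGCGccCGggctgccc
Igfbp6: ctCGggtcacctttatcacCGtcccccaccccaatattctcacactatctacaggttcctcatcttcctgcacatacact

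The Igfbp3 stretch holds 10 CG dinucleotides in 80 bases, the shorter Igfbp5 stretch 4 in 61 bases, and those of Igfbp2 and Igfbp6 hold 2 each in 80 bases. Over whole promoter windows (250 bases before to 50 after the start), the observed-to-expected ratio of CG was 0.961 for Igfbp3 and 1.11 for Igf1r but 0.420 for Igfbp5 and 0.307 for Igf1, against a median of 0.384 over 32851 promoters. Igfbp2, at 0.6445 and 0.6466 in its 2 windows, and Igfbp6, at 0.614, lay above Igfbp5 and this median, although their short stretches held fewer CG dinucleotides. The letters TATAAA, on the gene's strand within 50 bases before the start, occurred in Igfbp4 alone among the 8 genes and in 2.63% of all promoters. In Igfbp4 they began 28 bases before the start (motif in capitals, chr11:99041206-99041231, plus strand).
Igfbp4: agggggccggTATAAAgtcccgggag

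The targeted gene matched the labels. Ciz1 stood at 18.7 to 24.96 FPKM in the 6 WT populations, at 0.0546 to 0.724 in the 7 untreated CIZ1 null ones, and at 296 and 191 with doxycycline. All 10 fibroblast markers were detected, with a summed level of 9635 to 10952 FPKM in untreated primary and 3103 to 6508 in adapted populations. The list did not move as one in adapted lines. Thy1 was at 643 to 979 FPKM in S01 to S06 but at 0 in S08 and 0.215 in S11, whereas Dcn, at 24.1 to 68.5 FPKM in S01 to S06, was at 905, 800.0 and 993 in S09, S10 and S12. Pdgfra, at 6.59 to 19.5 FPKM in S01 to S06, lay above that range in S07, S10 and S12, at up to 63.2. Skeletal muscle markers and the neuron markers Rbfox3 and Snap25 stayed under 0.1 FPKM, and no level was obtained for Tubb3, also on the neuron list. Single markers of other cell types were present, among them the cartilage gene Col2a1 at 15.1 FPKM in S08, the epithelial gene Krt8 at 8.06 and the glial gene Sox10 at 4.93 FPKM in S05, and the liver gene Alb at 3.79 and 4.71 FPKM in S10 and S12. They were not confined to these libraries. The cartilage gene Sox9 was at 1.37 to 7.86 FPKM in every library but S07, and Col2a1 was also at 4.78 FPKM in S02 and 5.86 in S14. The epithelial gene Krt18 reached 3.30 FPKM in S04 and the endothelial gene Kdr 2.395 in S07. Macrophage markers summed to 8.55 to 87.2 FPKM in untreated primary and 2.15 to 15.1 in adapted populations. Read counts were not used here, and low values gave relative depths from 0.480 (S13) to 1.63 (S02) times that of S01.

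In primary cells the order of levels was led by Igfbp7. Over the 7 untreated primary populations its median was 859 FPKM (587 to 1105), and it made up 61.6 to 83.3% of the summed level of the 6 binding protein genes. Igfbp2 (median 80.8, 30.2 to 100.4) and Igfbp6 (73.8, 54.8 to 104) came next with overlapping ranges, as did Igfbp4 (51.5, 35.6 to 239). Igf1r followed at 22.4 (17.2 to 32.4). Igfbp3 (20.5, 3.18 to 189), Igfbp5 (13.1, 4.85 to 26.0) and Igf1 (8.03, 1.88 to 15.1) were lowest, and their ranges overlapped.

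In the 6 adapted lines this order broke up from line to line. Igfbp7 led in 4 of them, Igfbp4 led in S07 with 43.8% of the summed level and Igfbp2 led in S11 with 56.8%. The sum of the 6 binding protein genes was 953 to 1326 FPKM in untreated primary populations and 275 to 1073 in adapted ones. In bulk RNA a lower level can mean fewer cells that express a gene or less RNA in each, and these cannot be told apart.

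**Figure D1:**
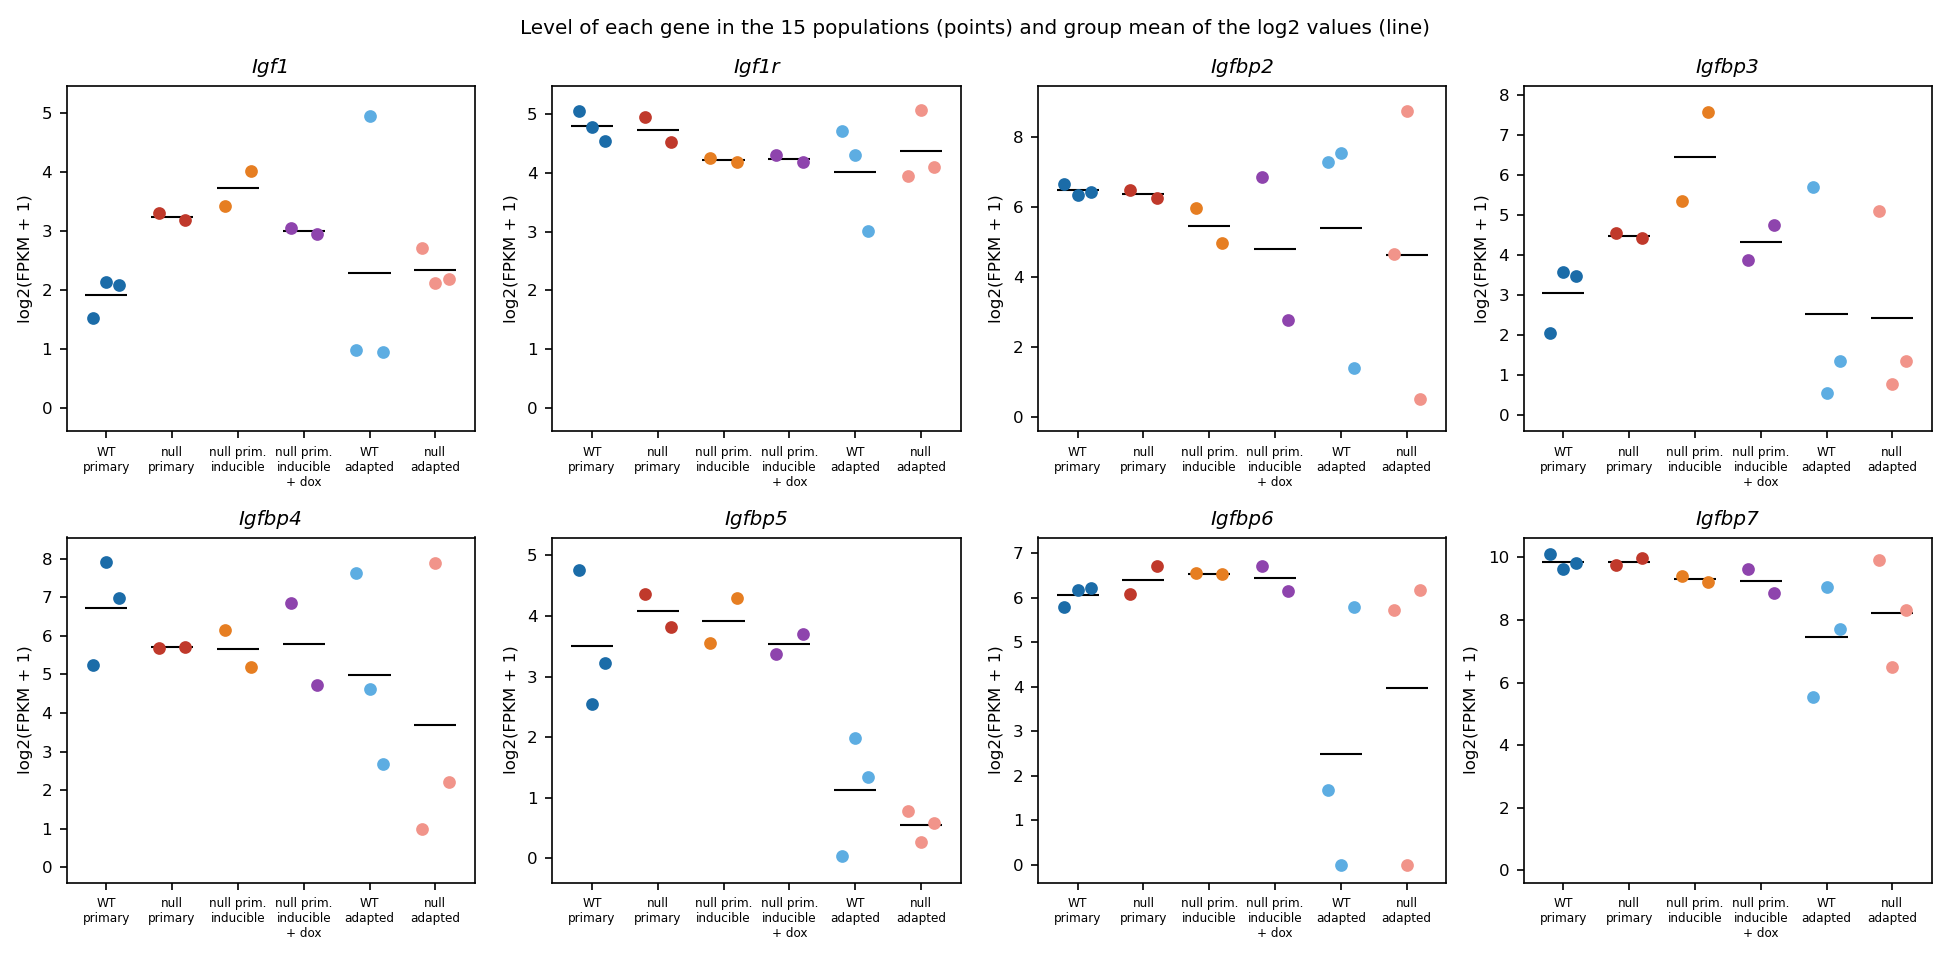
Level of each of the 8 genes on the log2(FPKM + 1) scale (vertical axis) in the 15 populations (points), by the 6 labelled groups, with the mean of the log2 values in each group (line). Points of the WT primary group lie closer together for Igf1, Igf1r, Igfbp2, Igfbp6 and Igfbp7 than for Igfbp3, Igfbp4 and Igfbp5. The doxycycline populations differ widely for Igfbp2. Igfbp5 is low in all 6 adapted lines, and Igfbp2, Igfbp3, Igfbp4 and Igfbp6 are spread widely among adapted lines.

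The first question was which genes of the axis change when fibroblasts adapt to culture. In CIZ1 null cells Igfbp5 fell. Its levels were 19.5, 13.1 and 10.7 FPKM in the primary populations S04, S05 and S06 and 0.722, 0.206 and 0.497 FPKM in the adapted lines S10, S11 and S12. Every adapted line was far below every primary population. The group means were 14.4 ± 4.56 and 0.475 ± 0.259 FPKM (SD, n = 3), a ratio of adapted to primary of 0.0329, and the change on the log2(FPKM + 1) scale was -3.36 (SE 0.27, limma adjusted p = 0.0120 over 20044 units). Within the 3 embryos the log2 change was -3.03 to -3.78. With the embryo as a block the adjusted p was 0.0708, and without S05 it was 0.0601, at log2 changes of -3.36 and -3.41.

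In WT cells Igfbp5 had the same direction without passing the test. The primary populations S01, S02 and S03 were at 26.0, 4.85 and 8.31 FPKM and the adapted lines S07, S08 and S09 at 0.0309, 2.95 and 1.53. The groups did not overlap, although the lowest primary population, S02, was close to the highest adapted line, S08. The log2 change was -2.39 (SE 0.69, limma adjusted p = 0.0767), and fitted together with the CIZ1 null cells, which lends it their spread, the adjusted p was 0.0242. Igfbp5 was lower in the adapted line in 6 of 6 embryos, and the share of all units with this pattern was not worked out. IGFBP5 is the most conserved of the binding proteins and attaches to extracellular matrix, and its transcript was the only one of the 8 called in any of the 6 comparisons.

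Igfbp7 was also lower in the adapted line of 6 of 6 embryos, by log2 changes from -4.06 (S02 to S07) to only -0.074 (S05 to S10). The share of all units lower in all 6 embryos was not worked out. WT primary populations S01, S02 and S03 had 1105, 785 and 895.5 FPKM and WT adapted lines S07, S08 and S09 had 46.0, 526 and 211 FPKM. The WT groups did not overlap. CIZ1 null primary populations S04, S05 and S06 had 859, 1012 and 684 FPKM and adapted lines S10, S11 and S12 had 961.5, 89.2 and 316.5 FPKM. S10 lay within the primary range, so these groups overlapped. The log2 changes were -2.40 (SE 0.81, limma adjusted p = 0.106) in WT and -1.48 (SE 0.80, limma adjusted p = 0.264) in CIZ1 null cells.

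Igfbp6 stood near the primary level in 3 adapted lines and near 0 in the other 3. It was 54.8, 71.2 and 73.8 FPKM in S01, S02 and S03 and 2.21, 0 and 54.1 FPKM in the adapted S07, S08 and S09. It was 66.9, 104 and 92.7 FPKM in S04, S05 and S06 and 51.9, 0 and 70.9 FPKM in the adapted S10, S11 and S12. The lines S09, S10 and S12 thus held levels close to primary cells, S07 was low, and S08 and S11 were listed at 0. The WT groups did not overlap, by a margin under 1 FPKM, and the log2 changes of -3.58 (SE 1.35, limma adjusted p = 0.134) in WT and -2.49 (SE 1.57, limma adjusted p = 0.332) in CIZ1 null cells did not pass the test.

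Igfbp2 differed most among adapted lines. In the 6 primary populations compared it was at 100.4, 80.8 and 85.7 FPKM in S01, S02 and S03 and 89.1, 74.9 and 61.3 FPKM in S04, S05 and S06. In adapted lines it was 155, 185 and 1.65 FPKM in S07, S08 and S09 and 24.3, 427 and 0.433 FPKM in S10, S11 and S12. The highest adapted line was 986 times the lowest within the CIZ1 null group. With lines on both sides of the primary range, the log2 changes of -1.07 (SE 1.57) in WT and -1.59 (SE 1.87) in CIZ1 null cells were smaller than their errors (limma adjusted p = 0.682 and 0.597). Without S09 the change in WT cells turned to 0.93 higher (limma adjusted p = 0.0287).

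The adapted lines with high Igfbp2 were those with little or no Igfbp6. S07, S08 and S11, at 155 FPKM of Igfbp2 or more, had 2.21 FPKM of Igfbp6 or less, and S09, S10 and S12, at 24.3 FPKM of Igfbp2 or less, had 51.9 FPKM of Igfbp6 or more. Both sets held WT and CIZ1 null lines. The same 3 lines that were high for Igfbp2 also had the highest Igfbp4 (198, 23.7 and 235 FPKM in S07, S08 and S11, against 5.39, 1.004 and 3.65 in S09, S10 and S12) and the highest Igf1r (25.1, 18.7 and 32.8 FPKM, against 7.11, 14.5 and 16.2). For Igf1r this held in the main unit only, because in its second unit S10 (12.85 FPKM) lay above S08 (10.33 FPKM). Fibroblast markers also differed between these lines. Thy1 was at 168, 0 and 0.215 FPKM in S07, S08 and S11 and 292, 584 and 361 FPKM in S09, S10 and S12. Dcn was at 0.984, 46.5 and 56.8 FPKM in S07, S08 and S11 and 905, 800.0 and 993 FPKM in S09, S10 and S12. Col3a1 went the other way. It was at 159, 1063 and 532 FPKM in S07, S08 and S11 and 10.0, 114 and 48.7 in S09, S10 and S12. The summed fibroblast markers overlapped, at 5289, 6508 and 3241 FPKM in S07, S08 and S11 against 3103, 4926 and 5499. The part of these markers in the levels of the binding protein genes was not tested. This arrangement of Igfbp2 and Igfbp6 was noticed in 6 lines after their values were seen, falls into 2 clusters, and was given no test.

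Igfbp4 and Igfbp3 were variable in both states. Igfbp4, whose product is cleaved by the protease PAPP-A, was at 36.9, 239 and 126 FPKM in S01, S02 and S03 and 50.7, 51.5 and 69.7 in S04, S05 and S06. Its log2 change with adaptation was -1.73 (SE 1.29) in WT and -2.15 (SE 1.67) in CIZ1 null cells, with overlapping groups. Igfbp3, which encodes the main carrier of IGFs in blood, was at 3.18, 10.96 and 10.1 FPKM in S01, S02 and S03 and 51.0, 0.469 and 1.55 FPKM in S07, S08 and S09. In CIZ1 null cells it was at 22.3, 20.5 and 39.4 FPKM in S04, S05 and S06 and 33.5, 0.709 and 1.57 FPKM in S10, S11 and S12. One adapted line of each genotype, S07 and S10, had high Igfbp3 and the other 4 were under 2 FPKM. The changes of -0.50 (SE 1.32) and -2.35 (SE 1.10) did not pass the limma test (adjusted p = 0.823 and 0.209).

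The ligand gene Igf1 fell short of a call in CIZ1 null cells. Its levels were 8.80, 8.03 and 9.73 FPKM in S04, S05 and S06 and 5.54, 3.34 and 3.53 FPKM in S10, S11 and S12. The groups did not overlap, and the log2 change was -0.96 (SE 0.22, limma adjusted p = 0.0570, or 0.120 with the embryo as a block). In WT cells S01, S02 and S03 had 1.88, 3.39 and 3.22 FPKM and the adapted S07, S08 and S09 had 0.959, 29.9 and 0.927. S08 was the one high line, and without it the change of 0.38 (SE 1.06) became -0.95 (limma adjusted p = 0.0925). S08 also had the highest Col2a1 (15.1 FPKM). Its level of Sox9, another cartilage gene, was below those of S01, S02, S03 and S09 in the main unit. In another unit of Sox9, S08 (2.70 FPKM) lay slightly above S01, S02 and S03 (2.684, 2.233 and 2.60 FPKM). Acan, also on the cartilage list, was highest in S08 too, but only at 0.401 FPKM. Whether cartilage markers have a part in the Igf1 level of S08 was not tested. A second unit named Igf1, at 21.0% of the mean level, had a log2 change of 0.27 in CIZ1 null cells, opposite in sign to the main unit.

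The receptor gene Igf1r stayed between 7.11 and 32.8 FPKM in all 15 populations. It was 32.4, 26.5 and 22.5 FPKM in S01, S02 and S03 and 25.1, 18.7 and 7.11 FPKM in S07, S08 and S09. CIZ1 null primary populations S04, S05 and S06 had 29.9, 21.9 and 18.1 FPKM, and adapted lines S10, S11 and S12 had 14.5, 32.8 and 16.2 FPKM. Primary and adapted groups overlapped in both genotypes, with log2 changes of -0.79 (SE 0.44, limma adjusted p = 0.270) and -0.20 (SE 0.35, limma adjusted p = 0.733). The 95% interval ran from -1.84 to 0.26 in WT and from -1.04 to 0.65 in CIZ1 null cells.

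Counted together, adaptation of WT cells gave 0 of the 8 genes past the limma adjusted p of 0.05, where 9.55% of all units passed. At an unadjusted p under 0.05 it gave 3 of 8 (all units, 30.6%), and the groups did not overlap for 3 of 8 (all units, 38.7%). Among these last 3, Igfbp6 overlapped in its second unit. Adaptation of CIZ1 null cells gave 1 of 8 past the adjusted p (all units, 4.86%), 2 of 8 at the unadjusted p (all units, 29.3%) and 2 of 8 without overlap (all units, 37.1%). With 8 genes, counts of 0 to 3 were close to these background shares. The median size of the log2 change of the 8 genes was 1.40 in WT and 1.87 in CIZ1 null cells, against 0.43 and 0.45 over all units. The summed fibroblast markers were lower in all 6 adapted lines than in any untreated primary population, although single markers such as Dcn were higher in some lines, and their part in these changes was not tested.

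**Figure D2:**
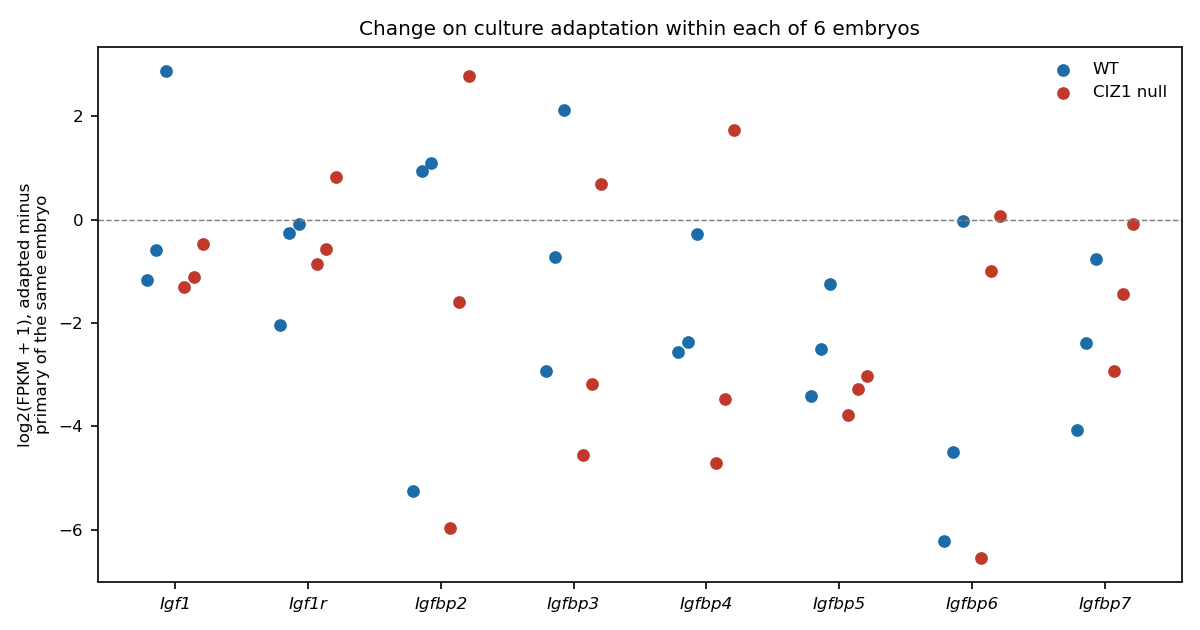
Change of log2(FPKM + 1) from the primary population to the adapted line of the same embryo (vertical axis) for each of the 8 genes, with 1 point for each of 3 WT and 3 CIZ1 null embryos. All 6 points lie below 0 for Igfbp5 and Igfbp7, the highest of Igfbp7 only at -0.074, and the points of Igfbp2 run from -5.97 to 2.78.

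The size of these changes goes with a wide spread among adapted lines. The SD of log2(FPKM + 1) within genotype had a median over the 8 genes of 0.30 in primary populations S01 to S06 and 2.15 in adapted lines, against 0.22 and 0.40 over 20046 units. It was larger in adapted lines for 7 of the 8 genes (87.5%) and for 82.5% of all units. Igfbp2 went from an SD of 0.22 to 3.80, above 99.9% of units in adapted lines. Igfbp5 was the exception, with 0.85 in primary and 0.72 in adapted populations. Igfbp3, Igfbp4 and Igfbp5 were already widely spread in primary populations, with SDs of 0.69, 0.97 and 0.85. These lay above 95.7, 98.1 and 97.45% of units. With S13 added to the CIZ1 null primary populations, a choice made after seeing the data, the primary SD was 0.49 for Igfbp2 and 1.19 for Igfbp3, the median over the 8 genes was 0.42, and 7 of the 8 still had the larger SD in adapted lines. No test was made of the difference in spread.

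**Figure D3:**
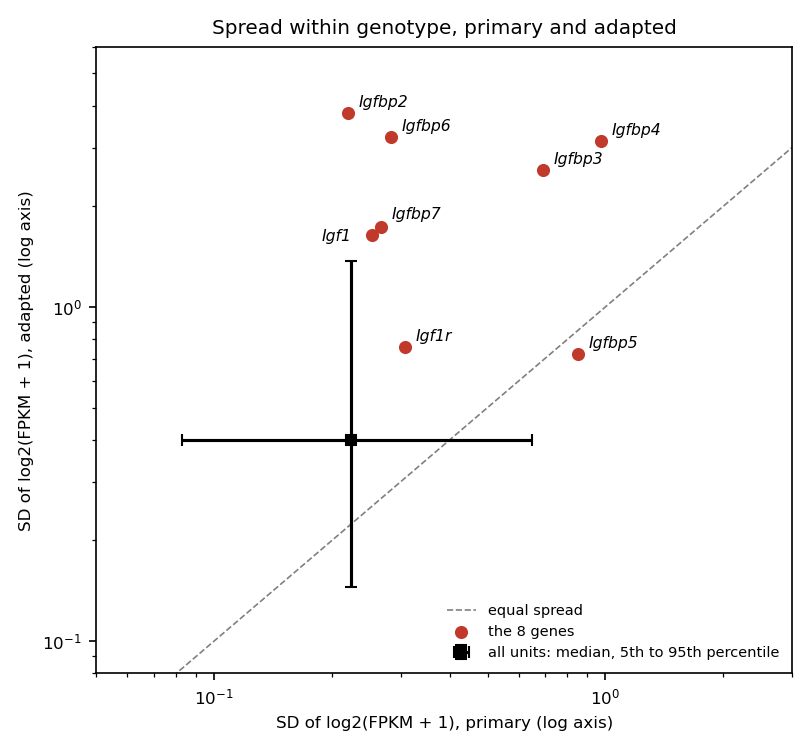
SD of log2(FPKM + 1) within genotype in primary (S01 to S06, horizontal axis) and adapted (vertical axis) populations, both on log axes, for the 8 genes (red) and all units (black square at the median, bars from the 5th to the 95th percentile). Igfbp2, Igfbp6, Igfbp4, Igfbp3, Igfbp7 and Igf1 lie above the 95th percentile of adapted spread (1.37), and Igfbp5 alone lies below the line of equal spread.

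Loss of CIZ1 in primary cells was compared next. Igf1 was higher without CIZ1, at 8.80, 8.03 and 9.73 FPKM in S04, S05 and S06 against 1.88, 3.39 and 3.22 FPKM in S01, S02 and S03. Each CIZ1 null population was above each WT population by more than the spread within either group. The means were 8.85 ± 0.851 and 2.83 ± 0.826 FPKM (SD, n = 3), a ratio of 3.13, and the log2 difference was 1.38 (SE 0.20, 95% interval 0.92 to 1.85). Over 19566 units the limma adjusted p was 0.423, so the difference was not called.

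Igfbp3 had the same order. It was at 22.3, 20.5 and 39.4 FPKM in the CIZ1 null populations and 3.18, 10.96 and 10.1 FPKM in the WT ones, with no overlap. The means were 27.4 ± 10.4 and 8.09 ± 4.27 FPKM (SD, n = 3), a ratio of 3.39, and the log2 difference was 1.73 (SE 0.44, limma adjusted p = 0.671). The 2 other units named Igfbp3 gave log2 differences of 2.01 and 1.98. With S04 and S05 alone as the CIZ1 null populations the difference was 1.44, and with S13 added, at 189 FPKM, it was 2.43.

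These were 2 of the 8 genes at an unadjusted p under 0.05, where 6.26% of all units lay, and 2 of 8 without overlap, against 11.9%. None of the 8 passed the adjusted p, as for 0.00511% of all units, which is 1 unit, Ciz1. The study's own test, Cuffdiff, called many more units between the same populations, so the count of calls depends on the test. Of the other binding proteins, Igfbp4 differed by -0.86 (SE 0.61), Igfbp5 by 0.40 (SE 0.54) and Igfbp6 by 0.38 (SE 0.20) on the log2 scale, none past the test. The median size of the log2 difference was 0.39 for the 8 genes and 0.15 over all units.

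Macrophages are a known source of Igf1, and their markers were not level across these populations. The 5 macrophage markers summed to 64.4, 8.55 and 87.2 FPKM in S04, S05 and S06 and to 16.3, 31.0 and 16.0 FPKM in S01, S02 and S03. Lyz2 made up most of this, at 50.7, 5.58 and 71.9 FPKM against 12.1, 20.7 and 11.8. S05, with the lowest marker sum of all primary populations, had 8.03 FPKM of Igf1 and 20.5 FPKM of Igfbp3, and it was also the library with the highest Krt8 and Sox10. The part of these markers in the differences was not tested.

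**Figure D4:**
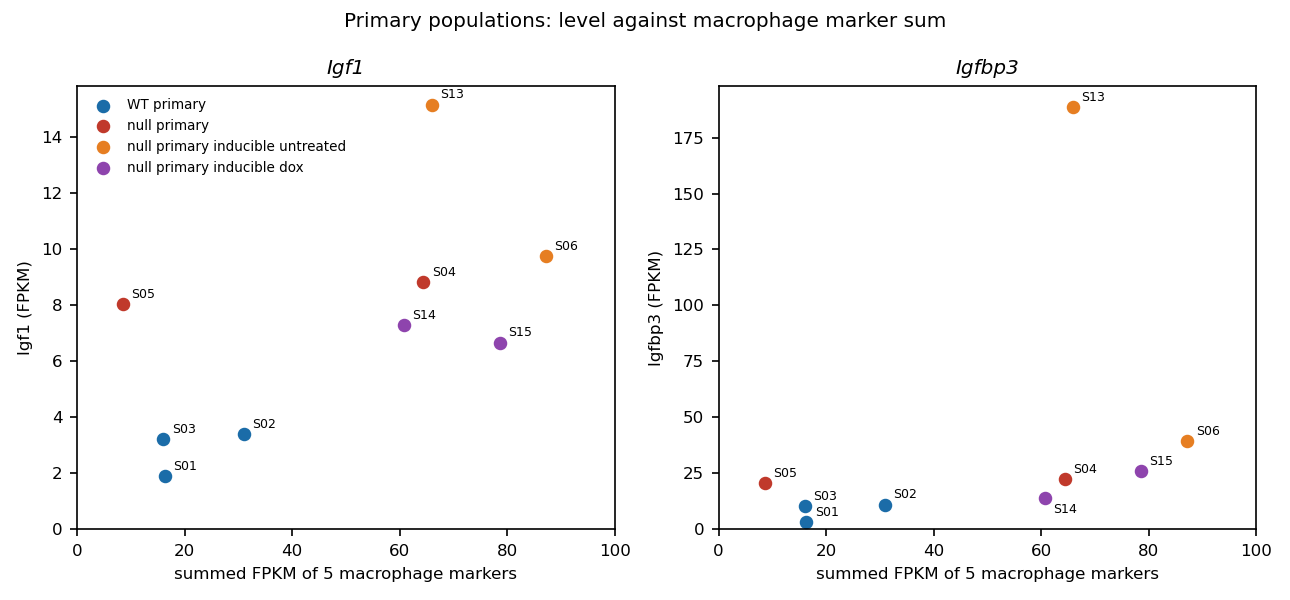
Level of Igf1 and Igfbp3 (FPKM, vertical axes) against the summed FPKM of 5 macrophage markers (horizontal axis) in the 9 primary populations, each a labelled point coloured by group. S05 lies at the left with a marker sum of 8.55, the 3 WT points lie at sums of 16.0 to 31.0 and lower levels of both genes, and S13 has the highest level of both.

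In adapted cells, none of the genes passed the test for loss of CIZ1. Of the 7 tested, 0 passed the limma adjusted p (all units, 0.00501%), 0 had an unadjusted p under 0.05 (all units, 4.02%) and 0 were without overlap (all units, 8.28%). The log2 differences ran from -1.28 (SE 2.01) for Igfbp4 to 1.48 (SE 2.05) for Igfbp6. Intervals were wide, from -6.09 to 3.53 for Igfbp4, so differences of several log2 units would not have been detectable. Igf1 was at 0.959, 29.9 and 0.927 FPKM in S07, S08 and S09 and 5.54, 3.34 and 3.53 FPKM in S10, S11 and S12, and S08 lay above while S07 and S09 lay below every CIZ1 null line.

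Whether the effect of CIZ1 loss differed between adapted and primary cells was tested by an interaction term over 12 populations. For 0 of the 8 genes did limma give an adjusted p under 0.05 (all units, 0%), and for 0 an unadjusted p under 0.05 (all units, 4.63%). The difference was -1.34 (SE 1.19) for Igf1 and -1.85 (SE 1.89) for Igfbp3 on the log2 scale.

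The last comparison asked what changes when GFP-CIZ1 is put back. Igfbp3 was at 39.4 and 189 FPKM in the untreated S06 and S13 and at 13.7 and 26.0 FPKM with doxycycline in S14 and S15. Igf1 was at 9.73 and 15.1 FPKM in the untreated populations and at 7.26 and 6.65 FPKM with doxycycline. Both genes were lower in each treated population than in each untreated one, and both treated values lay above the 3 WT populations. In the second unit named Igf1, however, the treated S15 (1.39 FPKM) lay above the untreated S06 (0.9375 FPKM). The study induced CIZ1 in the only transgenic primary lines that it lists, and the values of S06 match embryo 13.17, which is among them. The embryos of S13, S14 and S15 are not given by library. Treated and untreated populations thus probably share embryos, but the fit took them as separate populations, without pairing. The log2 changes were -2.14 (SE 0.74) for Igfbp3 and -0.73 (SE 0.28) for Igf1, each with a limma adjusted p of 1.

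S13, the shallowest library, weighed heavily on both. Without it the log2 changes were -1.02 for Igfbp3 and -0.43 for Igf1, and without S06 they were -3.25 and -1.02. Untreated S06 also stands among the CIZ1 null populations of the comparison with WT cells, so the opposite signs of these 2 comparisons for Igf1 and Igfbp3 do not come from separate samples. S04 and S05, which no doxycycline comparison used as controls, had 22.3 and 20.5 FPKM of Igfbp3, within the range of the treated populations, and 8.80 and 8.03 FPKM of Igf1, above it.

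These 2 of the 8 genes had an unadjusted p under 0.05 with doxycycline (all units, 3.57%), 2 of 8 were without overlap (all units, 19.7%) and 0 of 8 passed the adjusted p (all units, 0.0152%). Igfbp2 was at 61.3 and 30.2 FPKM untreated and 115 and 5.79 FPKM treated, so the treated populations lay on either side. Igfbp4 was at 69.7 and 35.6 FPKM untreated and 115 and 25.5 FPKM treated, in the same arrangement. Macrophage markers summed to 87.2 and 66.0 FPKM untreated and 60.8 and 78.6 FPKM treated, and the fibroblast markers to 10164 and 9635 FPKM untreated and 7938 and 6341 FPKM treated. Their part in the changes was not tested.

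**Figure D5:**
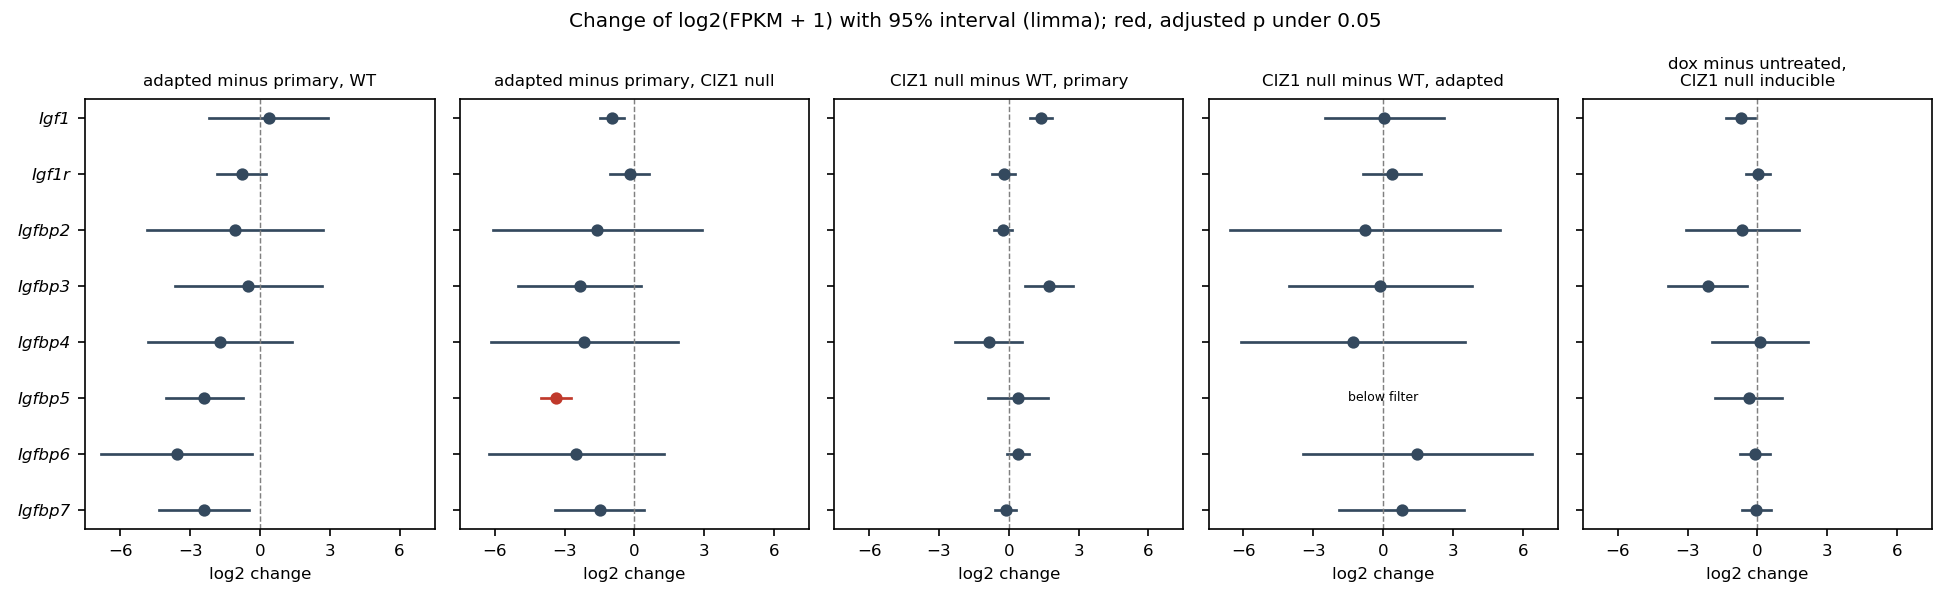
Change of log2(FPKM + 1) with its 95% interval from limma (horizontal axis) for the 8 genes in 5 comparisons (panels), in red where the adjusted p was under 0.05. The one red point is Igfbp5 in adapted against primary CIZ1 null cells, at -3.36, and the intervals of Igf1 and Igfbp3 exclude 0 on opposite sides for loss of CIZ1 in primary cells and for doxycycline.

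Other genes of the pathway were taken from a list of 37, of which 29 or 30 passed the filter. With adaptation of WT cells 3 fell and 0 rose past the limma adjusted p, and with adaptation of CIZ1 null cells 2 fell and 0 rose. Of all units, 9.55% and 4.86% passed in these comparisons, so the counts in the list were close to the background. Igf2, the other ligand, fell in both. It was at 225, 218 and 210.5 FPKM in S01, S02 and S03 and 22.6, 1.74 and 1.08 FPKM in S07, S08 and S09 (log2 change -5.41, adjusted p = 0.0215). It was at 255, 429 and 249 FPKM in S04, S05 and S06 and 36.2, 2.80 and 5.44 FPKM in S10, S11 and S12 (log2 change -4.96, adjusted p = 0.0324). In both genotypes every adapted line lay below every primary population for this ligand, which IGFBP6 prefers.

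The other called genes were Adam12, Htra3 and Akt1. Adam12, a protease that cleaves IGFBP3 and IGFBP5, fell by 2.30 on the log2 scale in WT cells (limma adjusted p = 0.00992) and had a log2 change of -1.96 in CIZ1 null cells (limma adjusted p = 0.274), where S10 kept 36.5 FPKM. Htra3, of a family of secreted serine proteases that includes the IGFBP protease HTRA1, fell by 1.69 in CIZ1 null cells (limma adjusted p = 0.0388). Akt1, a kinase downstream of IGF1R, fell by 0.71 in WT cells (limma adjusted p = 0.0313). Pappa, the protease of IGFBP4, had log2 changes of -2.55 in WT (limma adjusted p = 0.0599) and -0.76 in CIZ1 null cells (limma adjusted p = 0.331). Htra1, Stc1 and Stc2, the last 2 of which encode inhibitors of PAPP-A, passed the test in no comparison. Loss of CIZ1 and doxycycline gave 0 calls in the list.

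The genes whose pattern over the 15 populations was most like that of each member were found among 11668 units with a symbol and a mean of at least 5 FPKM, by Pearson's r of log2(FPKM + 1). These populations share embryos, genotypes and culture state, and r is given as a description. The closest were Crabp1 for Igfbp6 (r = 0.978), Slc1a6 for Igfbp2 (0.948), Tmsb10 for Igfbp5 (0.936) and Efnb2 for Igfbp7 (0.935). Cd80 was closest to Igfbp4 (0.908), Mical1 to Igf1r (0.897), Podn to Igfbp3 (0.892) and a unit listing Mir761 and Nrd1 to Igf1 (0.842). The second closest were Wbscr17 for Igfbp6 (0.955), Rab2a for Igfbp5 (0.934), a second unit named Efnb2 for Igfbp7 (0.926) and Nbl1 for Igfbp2 (0.917). For Igfbp4 it was a unit listing Hoxa11os (0.896), for Igf1r Zfp703 (0.875), for Igfbp3 Slit2 (0.872) and for Igf1 Sec24d (0.803). No member was among the closest 2 of another member.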

How the data were processed

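The authors trimmed paired reads with cutadapt 1.8.3, aligned them to GRCm38 with HISAT2 2.0.5, assembled transcripts with Cufflinks and deposited normalised FPKM values per transcription unit from Cuffnorm. Their Cuffdiff 2.2.1 table (group means, fold changes, p-values and q-values) was not used. The members and lists were chosen with earlier results of these data known.

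FPKM values were tested on the log2(FPKM + 1) scale with limma 3.58.1 in R 4.3.3 (trended variance, two-sided, Benjamini-Hochberg adjustment over all units with a mean of at least 1 FPKM over the populations fitted), called at an adjusted p under 0.05. Fold changes on this scale understate the change of low genes. Doxycycline was fitted over the 9 primary populations. The procedure was run on simulated data with independent, normally distributed values for each unit. These held no pairing by embryo and no lines split between low and primary levels, so such cases were not covered. The main unit of each gene was the one with the highest mean FPKM. Named besides the 8 members were Ciz1, the 2 units most like each member, pathway genes called in a comparison and proteases with their inhibitors at a mean of at least 1 FPKM. Markers of cell types and genes that neighbour or overlap a member were named as well, some of them chosen after their values were seen. Sequences are from RefSeq, where 8 of 8 members matched. Gene strand and overlap are from GENCODE vM21, of the same assembly.

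The embryo, from the study's tables by line, pairs primary and adapted populations. The correlation of deviations from group means between populations of 1 embryo was -0.019 to 0.210 over 20031 units, and 4 of 6 primary populations correlated best with their own line. Depth is not given by the files except as a ratio between libraries, read from values under 0.3 FPKM, so no counting interval is given. P-values measure the spread between populations.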

Additional observations from a re-analysis of the deposited data

How the results depend on the processing

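Of the counts of members past the adjusted p of 0.05, those for loss of CIZ1 in primary and adapted cells, for the difference between them and for doxycycline stayed at 0 under every alternative run. For adaptation of WT cells the count of 0 became 1 (Igfbp5) with all 4 groups in 1 fit and was 0 to 2 with single populations left out: 1 without S08 (Igfbp7, adjusted p = 0.0497) and 2 without S09 (Igfbp2 and Igfbp6). For adaptation of CIZ1 null cells the count of 1 became 0 with the embryo as a replicate block and was 0 to 4 with single populations left out: 0 without S05, 2 without S11 (Igfbp4 and Igfbp5) and 4 without S10 (Igfbp3, Igfbp5, Igfbp7 and Igf1). The block changed no other call of a member. Igfbp5 in CIZ1 null cells held its call with a pseudocount of 0.1, no filter, a minimum of 5 FPKM, quantile normalization and summed units.

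Small log2 changes turned sign, and their range with single populations left out was as follows. In WT adaptation Igfbp2 ran from -2.14 to 0.93 (without S09), Igfbp3 from -2.09 to 0.48 (above 0 without S08 or S09) and Igf1 from -0.95 (without S08) to 1.05. In CIZ1 null adaptation Igfbp2 ran from -3.64 to 0.47 (without S12) and Igf1r from -0.55 to 0.0147 (without S10), and Igf1r was 0.028 with units summed. With loss of CIZ1, Igfbp5 in primary cells ran from -0.0812 (without S02) to 1.02 and Igfbp4 in adapted cells from -3.37 to 0.0696 (above 0 without S07 or S10). The cause was not tested, and each fit leaves fewer populations. For loss of CIZ1 in adapted cells the standard errors of 2.43 for Igfbp2, 2.01 for Igfbp4 and 2.05 for Igfbp6 limit what could be called. Over all units, the count of 1902 for WT adaptation was 62 to 2972 with single populations left out, 988 without the filter and 499 with the replicate block, and the count of 975 for CIZ1 null adaptation was 25 to 2999, 322 and 10. The latter count was 2907 with all 4 groups in 1 fit, 30 with S04 and S05 as the only primary populations and 449 with S13 added. In the other comparisons 0 to 3 units were called, at most 11 under alternatives with all populations, and 0 to 234 with single populations left out. Quantile normalization moved the median log2 change over all units from -0.05 to 0.06 in WT adaptation and from -0.04 to 0.06 in CIZ1 null adaptation.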
